A study of Mus musculus with 8 samples.

Results

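The 10 genes described here encode the main junction proteins of the cardiac intercalated disc: the connexins Gja1, Gja5 and Gjc1, the desmosomal genes Dsp, Pkp2, Jup, Dsg2 and Dsc2, the adherens junction gene Cdh2 and the scaffold gene Tjp1. They were taken by gene symbol from a table of 33249 genes, all 10 were found, and all 10 were among the 14028 genes whose mean fragment level scaled by transcript length and library size (FPKM) was at least 0.5. The data were poly(A) RNA sequencing libraries of mouse myocardium, 8 in all and 2 per group. All animals carried the floxed Piezo1 allele (Piezo1fl/fl). The labels call one genotype wild type (fl/fl, littermates without Cre) and the other Piezo1 knockout (CKO), in which a tamoxifen-inducible Cre under the Myh6 promoter, active in cardiomyocytes, removes Piezo1, a mechanically gated cation channel. Tamoxifen was given at 4 weeks of age. At 8 weeks the left anterior descending coronary artery was tied permanently (myocardial infarction, MI) or the chest was opened without ligation (Sham), and the MI hearts were taken at day 42. This gave the groups fl/fl-Sham and CKO-Sham without infarct, and fl/fl-MI and CKO-MI with it. The labels do not say that the libraries of a group come from separate animals, so the p-values below measure the spread between these libraries only.

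The intercalated disc joins cardiomyocytes end to end. Gap junctions, built of connexins, carry current from cell to cell, desmosomes tie the intermediate filaments of neighbouring cells together, and adherens junctions anchor the myofibrils. In infarcted hearts these junctions are known for remodelling at the border of the scar, and inherited defects of the desmosomal proteins cause arrhythmogenic cardiomyopathy.

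Library totals ran from 73821747 to 88117573 deposited counts. If each read pair adds about 4 counts, which is an assumption, that would be 18455437 to 22029393 read pairs. The share of counts from mitochondrially encoded genes was 43.1 to 46.4% in Sham and 19.9 to 24.2% in MI. The RNA level of the targeted gene did not separate the labelled genotypes. Piezo1 was at 72.2 and 82.0 CPM (counts as a rate of the TMM-scaled library total) in fl/fl-Sham and 76.7 and 88.3 in CKO-Sham. It was at 53.5 and 64.8 in fl/fl-MI and 56.3 and 64.6 in CKO-MI (log2 difference between the MI groups 0.03, SE 0.16). The study checked the deletion by Western blot in cardiomyocytes isolated from adult mice, whereas these libraries are of whole myocardium. It also reported Piezo1 in other cell types of the human heart, and the part of such cells in the Piezo1 level was not tested. Esr1, whose hormone-binding part is fused to Cre in the transgene, stood at 331 CPM in 1 library labelled fl/fl-MI, its replicate 2, and at 707 and 402 CPM in those labelled CKO-MI, but at 5.52 to 8.36 CPM in the other 5, which include both libraries labelled CKO-Sham. The genotype names below are therefore those of the labels only. Esr1 was low in every Sham library and high in every MI library except fl/fl-MI 1. Averaging over the labels therefore does not balance the Esr1 level between MI and Sham. The part of the transgene in the MI differences below was not tested. The library labelled fl/fl-MI 2 also stood apart in its markers. The summed level of 5 atrial markers (Myl4, Myl7, Sln, Bmp10, Nppa) was 19857 CPM there, and all 5 were highest in it. The sum was 2547 to 4450 CPM in the other 3 MI libraries and 135 to 594 in the Sham libraries. In those 3 MI libraries nearly all of the sum was Nppa (2520 to 4419 CPM). Myl4, Myl7, Sln and Bmp10 were there each no higher than in the highest Sham library. Of the marker lists of other cells, 6 of 6 endothelial markers were lower in MI than in Sham (summed level 1571 to 1740 CPM in Sham, 493 to 731 in MI) and 7 of 8 fibroblast markers were higher (1414 to 1559 against 2223 to 6426). Among 10 cardiomyocyte markers 3 were higher and 3 lower (34855 to 39350 against 22014 to 40674 CPM). In the remaining lists, 3 of 6 arterial endothelial and 1 of 4 smooth muscle markers were lower, 3 of 5 macrophage, 3 of 5 epicardial and mesothelial and 1 of 5 atrial markers were higher, and 1 of 6 conduction system markers passed in each direction. No marker was at 0 in any library. In bulk tissue, fewer cells of a type and less RNA per cell cannot be told apart.

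In the Sham hearts, by level per length, Dsp was highest at 24.0 ± 3.14 FPKM (SD, n = 4), followed by Jup at 15.0 ± 0.951, Gja1 at 12.4 ± 1.40, Tjp1 at 11.8 ± 0.672 and Pkp2 at 10.3 ± 0.964 FPKM. The cadherins came next, with Cdh2 at 6.08 ± 0.397, Dsg2 at 4.69 ± 0.312 and Dsc2 at 4.48 ± 0.449 FPKM. Gjc1 was at 4.35 ± 0.514 and Gja5 was lowest at 1.71 ± 0.317 FPKM. Of the 9 neighbouring pairs in this order, the ranges over the 4 libraries were apart for Dsp and Jup, Pkp2 and Cdh2, Cdh2 and Dsg2, and Gjc1 and Gja5, and overlapped for the rest. In the MI hearts Dsp was again highest at 95.4 ± 22.4 FPKM, and Cdh2 came next at 28.7 ± 6.52 FPKM, having been sixth in Sham. They were followed by Gja1 (26.7 ± 13.2), Pkp2 (23.0 ± 4.98), Jup (21.4 ± 4.05), Tjp1 (12.5 ± 1.07), Dsg2 (8.36 ± 7.78), Dsc2 (7.65 ± 5.21), Gjc1 (4.78 ± 1.08) and Gja5 (3.61 ± 3.83 FPKM). Here the ranges of neighbours were apart only for Dsp and Cdh2 and for Jup and Tjp1.

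**Figure D1:**
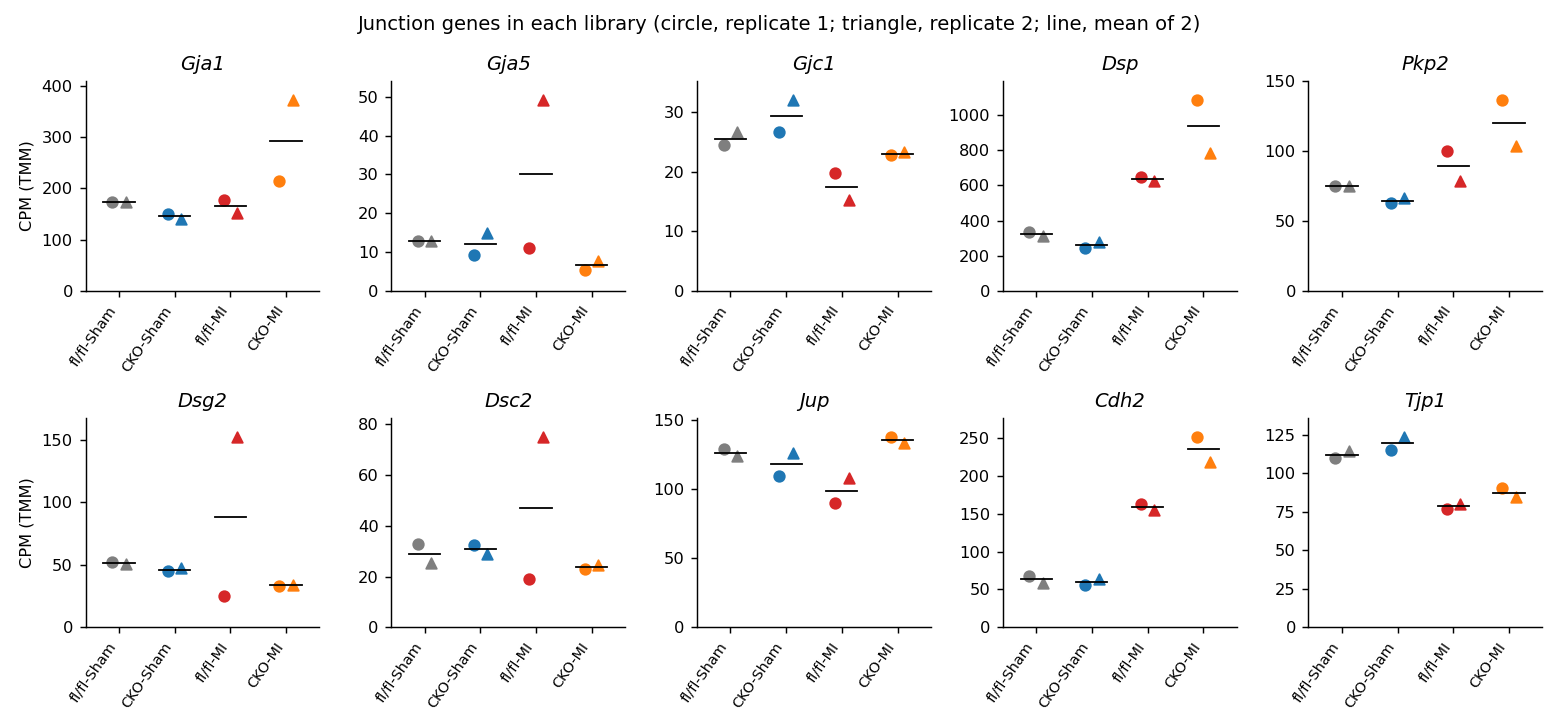
CPM of each of the 10 genes in the 8 libraries by group, on linear axes from 0, with a point per library (circle, replicate 1; triangle, replicate 2) and a line at the mean of both. Dsp and Cdh2 sit higher in all 4 MI libraries than in all 4 Sham libraries, and Gja5, Dsg2 and Dsc2 have 1 high point, the library labelled fl/fl-MI 2.

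The first comparison asked which junction genes differ in the myocardium at day 42 after MI. Averaged over both labelled genotypes, Cdh2, Dsp and Pkp2 rose, Tjp1 and Gjc1 fell, and Gja1, Gja5, Jup, Dsg2 and Dsc2 did not pass (edgeR quasi-likelihood test, Benjamini-Hochberg adjusted p under 0.05). That made 5 of 10 genes, against 40.4% of all genes tested. With direction, 3 of 10 were higher, against 22% of all genes, and 2 of 10 lower, against 18.3%. These shares are near the background, so the count itself is no feature of the junction genes. For the same 5 genes the 4 MI libraries did not overlap the 4 Sham libraries, again against 40.4% of all genes. The median log2 fold change was 0.17 over the 10 genes and 0.03 over all genes tested. The scale matters for this comparison: in FPKM, where the median of all genes was itself 0.41 higher in MI on the log2(FPKM + 1) scale, 5 of the 10 genes were higher (Cdh2, Dsp, Pkp2, Gja1 and Jup) and none lower with limma, against 56.1% of all genes called.

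Gja1 encodes the main connexin of working ventricular muscle. Its level was 173 and 174 CPM in fl/fl-Sham, 151 and 141 in CKO-Sham, 177 and 153 in fl/fl-MI, and 214 and 373 in CKO-MI. The fl/fl-MI libraries lay within or close to the Sham range, while both CKO-MI libraries lay above every other library. Over both genotypes the log2 fold change was 0.47 (SE 0.18, adjusted p = 0.0772) in edgeR. With all libraries kept, the adjusted p ran from 0.00830 to 0.134 over the alternatives tried. It was under 0.05 with DESeq2 (0.0417), with no filter on mean FPKM (0.0485) and with limma on FPKM. DESeq2 thus called 6 of the 10 genes, with Gja1 added. Leaving out 1 library at a time moved the change between 0.22 and 0.61, the latter without CKO-MI 1. Gja5 encodes the connexin of atrial muscle, the fast conduction system and arterial endothelium. It was at 12.7 and 12.9 CPM in fl/fl-Sham, 9.13 and 14.8 in CKO-Sham, 10.9 and 49.2 in fl/fl-MI, and 5.30 and 7.77 in CKO-MI. The library at 49.2 CPM was the one labelled fl/fl-MI 2, in which the atrial sum was highest. The conduction system sum was 244 CPM there against 47.9 to 68.9 in the other 7 libraries. Of it 170 CPM was Cacna2d2 alone, which was at 1.09 to 4.74 CPM elsewhere. Only 3 of the 6 conduction system markers were highest there, and Irx3 was at its lowest of all libraries. The arterial endothelial sum was 139.7 CPM there against 71.0 to 109.5 in the other MI libraries and 211 to 237 in Sham. The part of these cells in the Gja5 level was not tested. The fitted change of Gja5 was 0.18 (SE 0.44, adjusted p = 0.767) with that library and fell by 0.55 on the log2 scale (adjusted p = 0.0721) without it, and no alternative gave an adjusted p below 0.0696. Gjc1 encodes the connexin of nodal tissue and the developing heart. Its values were 24.4 and 26.7 CPM in fl/fl-Sham, 26.6 and 32.0 in CKO-Sham, 19.7 and 15.2 in fl/fl-MI, and 22.8 and 23.2 in CKO-MI. Every MI library was below every Sham library in CPM, with a log2 fold change of -0.45 (SE 0.12, adjusted p = 0.0246), but in FPKM the change was 0.10 on the log2 scale and of the opposite sign. The Gjc1 call was also lost when any 1 of 5 libraries was left out, at adjusted p = 0.0581 without CKO-MI 2, 0.0584 without CKO-MI 1, 0.0637 without fl/fl-Sham 1, 0.0929 without CKO-Sham 2 and 0.0942 without fl/fl-Sham 2, and over all alternatives the adjusted p ran from 0.00373 to 0.600.

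The 2 connexin genes with a promoter in the RefSeq table used (GRCm38.p6) are shown for comparison with the more G and C rich plaque gene promoters below. Each run is the 250 bases before the RefSeq start, which for Gja5 lies inside the span the files give the gene, and capitals mark matches, on either strand, to 6 motifs that were searched. Of all 32851 promoters of the same length, 6.75% held the AP-1 motif, searched as TGANTCA. The TEAD motif, searched as GGAATG, was held by 12.6% of the same promoters. The motif of GATA factors was searched as AGATAA and was held by 9.99% of them. A GC box, searched with the letters GGGCGG, was found in 32.7% of all of these windows. A TATA box, for which the letters were TATAAA, was found in 12.4%, and MEF2 in 0.508%. The Gja1 promoter lies at chr10:56377050-56377299 on the plus strand and is 50% G and C, and it held an AP-1 match starting 19 bases and a GATA match starting 135 bases before the start. The Gja5 promoter lies at chr3:97032152-97032401 on the plus strand, is 56.4% G and C and held a single GC box. A match of letters is a description and not a bound site.
Gja1 promoter: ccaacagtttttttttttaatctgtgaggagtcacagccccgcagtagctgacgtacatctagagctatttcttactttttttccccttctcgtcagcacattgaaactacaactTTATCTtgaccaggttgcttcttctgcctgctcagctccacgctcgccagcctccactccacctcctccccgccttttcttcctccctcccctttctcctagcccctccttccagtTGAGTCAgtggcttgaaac
Gja5 promoter: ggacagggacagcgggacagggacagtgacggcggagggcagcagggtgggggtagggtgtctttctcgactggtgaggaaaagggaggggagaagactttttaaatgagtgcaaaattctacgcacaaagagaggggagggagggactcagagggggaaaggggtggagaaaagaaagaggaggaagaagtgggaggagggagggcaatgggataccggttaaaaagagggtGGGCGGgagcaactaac

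Dsp encodes desmoplakin, which links the desmosomal plaque to desmin filaments. It was at 334 and 309.7 CPM in fl/fl-Sham, 242 and 280.3 in CKO-Sham, 650.2 and 623 in fl/fl-MI, and 1087 and 786 in CKO-MI. The lowest MI library was thus well above the highest Sham library, and Dsp rose 2.66-fold over both genotypes (log2 fold change 1.41, SE 0.14, 95% confidence interval 1.07 to 1.75, adjusted p = 0.00096). Pkp2, plakophilin, binds desmoplakin to the cadherin tails. Its level was 74.8 and 74.6 CPM in fl/fl-Sham, 62.5 and 66.6 in CKO-Sham, 99.8 and 78.6 in fl/fl-MI, and 136 and 104 in CKO-MI. The groups again did not overlap, but the gap was small and Pkp2 rose by 0.58 on the log2 scale (SE 0.13, adjusted p = 0.0131). That call was lost without CKO-Sham 1 (adjusted p = 0.0604), fl/fl-Sham 1 (0.0549) or fl/fl-Sham 2 (0.0580), with the change between 0.55 and 0.58. Over all alternatives the adjusted p of Pkp2 ran from 0.00087 to 0.0604. Jup, plakoglobin, is shared by desmosomes and adherens junctions. It was at 129 and 124 CPM in fl/fl-Sham, 109 and 126 in CKO-Sham, 90.1 and 108 in fl/fl-MI, and 138 and 133 in CKO-MI. The MI libraries lay on both sides of the Sham range, below it in fl/fl-MI and above it in CKO-MI, and the averaged log2 fold change was -0.07 (SE 0.11, adjusted p = 0.607) in CPM and 0.46 in FPKM. The plaque genes thus did not move together: Dsp more than doubled while Jup did not pass in CPM.

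Dsg2 and Dsc2 encode the desmosomal cadherins of cardiomyocytes, which bind each other across the cell gap. Dsg2 was at 52.5 and 50.3 CPM in fl/fl-Sham, 44.9 and 47.6 in CKO-Sham, 24.8 and 152 in fl/fl-MI, and 33.4 and 34.1 in CKO-MI. Dsc2 was at 32.6 and 25.3, 32.5 and 29.0, 19.0 and 74.9, and 23.1 and 24.4 CPM in the same groups. Both genes showed the same split: 3 MI libraries lay below every Sham library and the library labelled fl/fl-MI 2 lay far above all. Over all libraries neither passed (Dsg2 log2 fold change 0.17, SE 0.47, adjusted p = 0.800; Dsc2 0.16, SE 0.38, adjusted p = 0.754). Without fl/fl-MI 2, Dsg2 changed by -0.75 (SE 0.08, adjusted p = 0.00043) and Dsc2 by -0.49 (SE 0.12, adjusted p = 0.0111), and without fl/fl-MI 1 both were higher, by 0.54 (adjusted p = 0.00183) and 0.48 (adjusted p = 0.0113). The direction of both cadherins after MI therefore turned on which fl/fl-MI library was kept, and over all alternatives the adjusted p ran from 0.00043 to 0.943 for Dsg2 and from 0.0111 to 0.916 for Dsc2. The summed level of 5 epicardial and mesothelial markers was 188 CPM in fl/fl-MI 2 and 36.2 to 94.2 in the other MI libraries, and the part of such cells, or of atrial tissue, in the cadherin levels was not tested. Without fl/fl-MI 2, 7 of the 10 genes passed in this comparison (3 higher, 4 lower), against 50.7% of all genes.

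The promoters of the 2 plaque genes held by the RefSeq table are shown for their contrast in response and their shared base make-up. The Dsp promoter, at chr13:38151044-38151293 on the plus strand of GRCm38.p6, is 72.4% G and C and held 4 GC boxes, and it overlaps an exon of Gm10129 on the opposite strand. The Jup promoter, at chr11:100397791-100398040 on the minus strand, is 62% G and C and held 2 GC boxes. The promoter of Tjp1, not a plaque gene and not shown, is 63.2% G and C and also held 2 GC boxes. This base make-up was thus not particular to the plaque genes. The median over all promoters was 52.4%. None of the other 5 motifs had a match in the Dsp or the Jup window.
Dsp promoter: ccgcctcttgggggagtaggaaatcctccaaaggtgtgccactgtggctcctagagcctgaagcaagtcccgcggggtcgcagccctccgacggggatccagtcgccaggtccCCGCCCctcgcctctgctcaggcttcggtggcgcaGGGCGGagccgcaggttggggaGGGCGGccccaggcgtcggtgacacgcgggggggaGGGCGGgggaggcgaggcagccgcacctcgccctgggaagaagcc
Jup promoter: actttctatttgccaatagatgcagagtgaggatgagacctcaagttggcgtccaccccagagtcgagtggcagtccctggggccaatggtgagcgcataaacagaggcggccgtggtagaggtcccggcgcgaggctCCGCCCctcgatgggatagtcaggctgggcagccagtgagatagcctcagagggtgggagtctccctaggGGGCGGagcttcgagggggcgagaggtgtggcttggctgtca

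Cdh2, N-cadherin, the adhesion molecule of cardiac adherens junctions, showed the largest change of the 10 genes. It was at 68.4 and 58.7 CPM in fl/fl-Sham, 56.1 and 63.9 in CKO-Sham, 163 and 155 in fl/fl-MI, and 251 and 218 in CKO-MI. All 4 MI libraries were more than 2 times the highest Sham library, and Cdh2 rose 3.13-fold (log2 fold change 1.65, SE 0.11, 95% confidence interval 1.38 to 1.91, adjusted p = 0.00044). Cdh2 is also made by fibroblasts, whose summed markers rose in the same libraries. In fl/fl-MI 1 and 2 the fibroblast sum was 6426 and 2223 CPM, and in CKO-MI 1 and 2 it was 3293 and 5443 CPM. The sum was highest in fl/fl-MI 1, and Cdh2 was highest in CKO-MI 1. The part of these cells in the Cdh2 level was not tested. Tjp1, the zonula occludens scaffold that binds connexin at the edge of gap junctions, was at 110.0 and 115 CPM in fl/fl-Sham, 116 and 124 in CKO-Sham, 77.1 and 80.0 in fl/fl-MI, and 90.4 and 84.8 in CKO-MI. Every MI library was below every Sham library in CPM and Tjp1 fell by 0.48 on the log2 scale (SE 0.09, adjusted p = 0.00623), but in FPKM its change was 0.08 and of the opposite sign. Tjp1 is also made by endothelium, whose summed markers were lower in the same libraries, and the part of that was not tested. The calls of Cdh2, Dsp and Tjp1 were kept with each of the 8 libraries left out in turn. With the genotype labels left out of the model, a check chosen after the data were seen, the same 5 genes passed in the same directions. That check sets the same MI libraries against the same Sham libraries, so it cannot balance the Esr1 level between them.

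Ratios between members within a library do not depend on how libraries are scaled, although the size of a ratio also reflects transcript length. Of the 45 pairs of members, 16 had ratios that did not overlap between Sham and MI, against 38.1% of all pairs of genes tested. This count is near the background, so it is no feature of the junction genes. Each of the 16 had an adjusted p of 0.0804 (exact permutation test, adjusted over the 45 pairs), so none passed. Without fl/fl-MI 2 the number was 29 of 45, against 50.2%. Dsp to Jup was 2.21 to 2.60 in Sham and 5.79 to 7.89 in MI, and Dsp to Pkp2 was 3.87 to 4.47 and 6.52 to 7.96. Within the plaque, Dsp thus gained on both of its partners in every MI library. Jup to Cdh2 went the other way, from 1.88 to 2.10 in Sham to 0.548 to 0.694 in MI. Gja1 to Gjc1 was 4.39 to 7.09 in Sham and 8.96 to 16.0 in MI, and Gja1 to Cdh2 was 2.20 to 2.96 and 0.850 to 1.71. The desmosomal cadherins split again: Dsp to Dsg2 was 5.40 to 6.36 in Sham, 23.1 to 32.5 in 3 MI libraries and 4.09 in fl/fl-MI 2, while Dsp to Dsc2 was 7.45 to 12.2, 32.2 to 47.1 and 8.32. Dsg2 to Dsc2 moved together enough that the pair was among the 3 closest of the 45 by the root mean square (RMS) difference of centred log2 CPM over 8 libraries (0.23), beside Gjc1 with Tjp1 (0.16) and Dsp with Cdh2 (0.16).

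**Figure D2:**
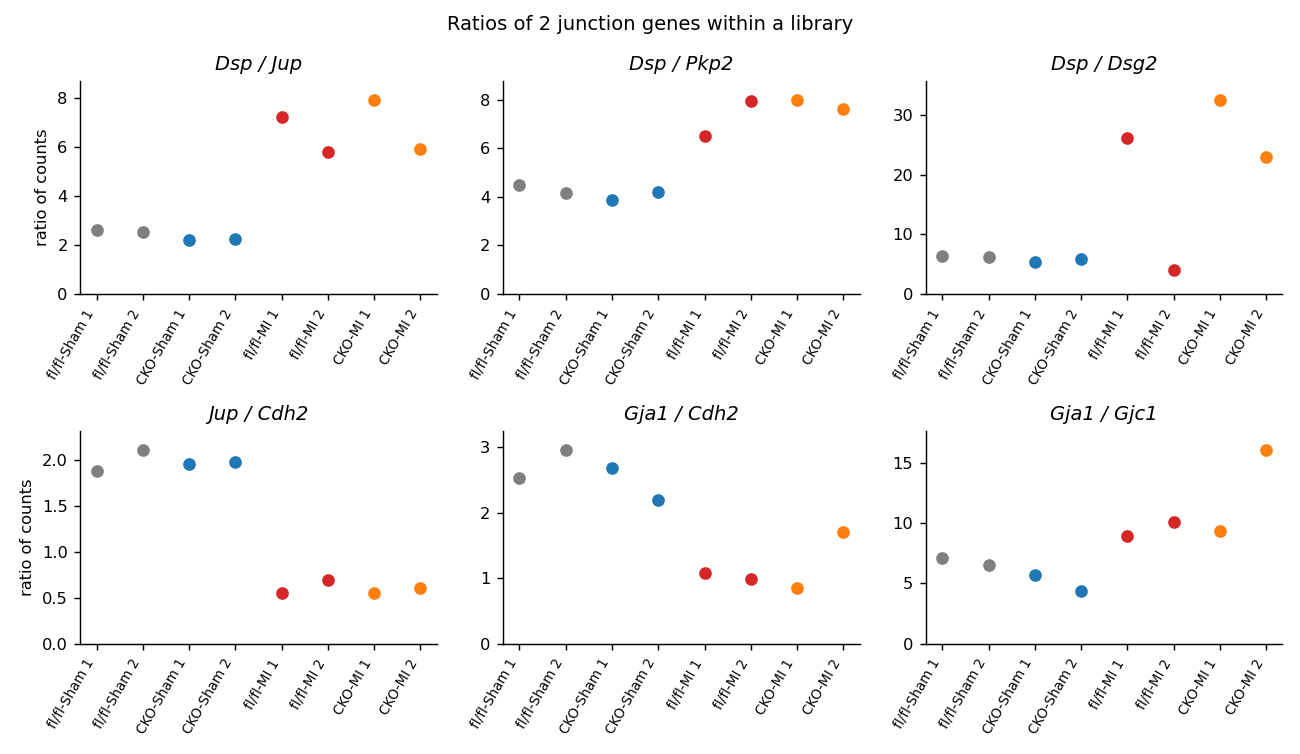
Ratios of the counts of 6 pairs of junction genes in each of the 8 libraries, on linear axes from 0, with 1 point per library. Dsp to Jup is higher and Jup to Cdh2 lower in all 4 MI libraries than in Sham, and Dsp to Dsg2 is 4.09 in fl/fl-MI 2 against 23.1 to 32.5 in the other MI libraries.

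Against the summed level of the 10 cardiomyocyte markers the same leading genes changed most, but none of the 10 genes passed after adjustment. Cdh2 was higher in MI by 1.9 and Dsp by 1.65 on the log2 scale. Each had a two-sided exact permutation p of 0.0286, the smallest that 4 against 4 libraries allow. Adjusted over the 10 genes tested, the p of each was 0.143. Pkp2 was higher by 0.81 (exact p = 0.0571) and Gja1 by 0.69 (exact p = 0.171), and the other 6 genes lay between -0.23 and 0.26. With Myh6, whose promoter drives the transgene, left out of the marker sum, Pkp2 (0.68) and Tjp1 (-0.36) also had an exact p of 0.0286. The adjusted p of Cdh2, Dsp, Pkp2 and Tjp1 was then 0.0714, so again none passed.

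The MI comparison was then made within each labelled genotype. In fl/fl-MI against fl/fl-Sham, 3 of 10 genes passed, against 18.5% of all genes: Cdh2 rose by 1.32 (SE 0.16, adjusted p = 0.00517) and Dsp by 0.98 (SE 0.20, adjusted p = 0.0206), and Tjp1 fell by 0.52 (SE 0.13, adjusted p = 0.0338) on the log2 scale. Gja1 (-0.07), Pkp2 (0.26), Jup (-0.35) and Gjc1 (-0.55, adjusted p = 0.0653) did not pass. In CKO-MI against CKO-Sham, 5 of 10 passed, against 24.7%: Cdh2 rose by 1.97 (SE 0.16, adjusted p = 0.00322), Dsp by 1.84 (SE 0.21, adjusted p = 0.00429), Gja1 by 1.01 (SE 0.26, adjusted p = 0.0310) and Pkp2 by 0.89 (SE 0.19, adjusted p = 0.0175), and Tjp1 fell by 0.45 (SE 0.13, adjusted p = 0.0407). The sign of Tjp1 turned in FPKM in both genotypes (0.05 and 0.11). All 10 genes had CKO-MI libraries apart from CKO-Sham, against 72.2% of all genes with 2 libraries on each side, and 6 of 10 in fl/fl, against 61.9%. These calls rested on few libraries. All 3 in fl/fl were lost without fl/fl-Sham 1 or fl/fl-Sham 2 (adjusted p from 0.0544 to 0.201), and Dsp and Tjp1 also without CKO-Sham 1 or CKO-Sham 2 (0.0503 to 0.0748). All 5 in CKO were lost without CKO-Sham 1 (0.0511 to 0.152), Gja1 was at 0.55 (0.0915) without CKO-MI 2, and Gja1 and Tjp1 were also lost without CKO-Sham 2, fl/fl-Sham 1 or fl/fl-Sham 2 (0.0681 to 0.187), Pkp2 without CKO-Sham 2 (0.0868) or CKO-MI 1 (0.0814), and Tjp1 without CKO-MI 1 (0.0929) or CKO-MI 2 (0.150). Without fl/fl-MI 2, 1 of the 3 libraries whose Esr1 level goes against the label, 6 of 10 passed in fl/fl, against 29.5%, and 7 of 10 in CKO, against 41.3%. The other 2 are the CKO-Sham libraries, on which the whole CKO comparison rests.

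**Figure D3:**
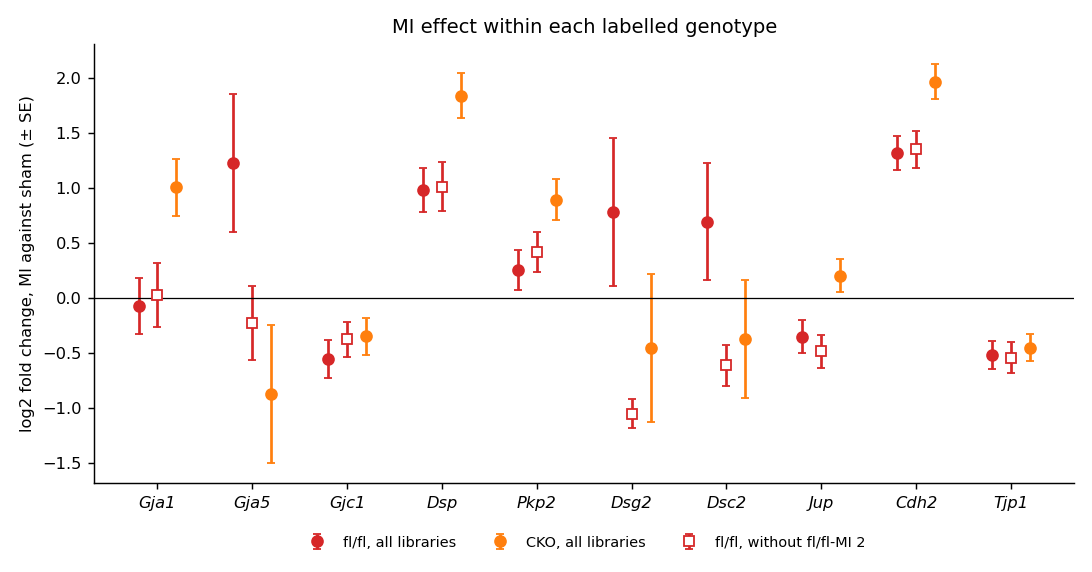
Log2 fold change of MI against Sham for the 10 genes, with its SE, within the libraries labelled fl/fl (red, 2 against 2), within those labelled CKO (orange, 2 against 2), and in fl/fl without fl/fl-MI 2 (open squares). Cdh2 (1.32 and 1.97) and Dsp (0.98 and 1.84) lie above 0 in both, and Gja5, Dsg2 and Dsc2 change sign in fl/fl when that library is left out.

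The study's own question, how loss of Piezo1 in cardiomyocytes alters the infarcted heart, corresponds to CKO-MI against fl/fl-MI. No junction gene passed, and neither did any other gene (percent called 0, edgeR with Benjamini-Hochberg adjustment), while DESeq2 called 1 of the 10, Gja5 (log2 fold change -2.19, adjusted p = 0.0213). At an unadjusted p under 0.05, 5 of 10 did, against 8.31% of all genes. Gja1 differed by 0.83 (SE 0.26), Dsp by 0.56 (SE 0.20), Cdh2 by 0.56 (SE 0.15), Jup by 0.45 (SE 0.15) and Gja5 by -2.20 (SE 0.65) on the log2 scale, with adjusted p from 0.549 to 0.556. Both CKO-MI libraries lay above both fl/fl-MI libraries for 7 of 10 genes (Gja1, Gjc1, Dsp, Pkp2, Jup, Cdh2 and Tjp1), against 14.5% of all genes, and below them for Gja5, against 15.5%. The median log2 fold change was 0.41 over the 10 genes and -0.01 over all genes. Since the library labelled fl/fl-MI 2 had the high Esr1 level of the CKO-MI libraries and the high atrial sum, the comparison was repeated without it. Then 4 of 10 genes had an unadjusted p under 0.05, against 11.8% of all genes: Gja1 (0.73, SE 0.30), Cdh2 (0.53), Jup (0.59) and Dsg2 (0.44), and none passed after adjustment, against 0.192%. Dsp kept its size (0.53) and the Gja5 difference shrank to -0.74. Without fl/fl-MI 1 instead, Gja5 (-2.90, adjusted p = 0.00308), Dsg2 (-2.16, adjusted p = 0.00039) and Dsc2 (-1.64, adjusted p = 0.00305) passed. The values of these 3 genes were thus set by the fl/fl-MI library used. The other 7 genes (Gja1, Gjc1, Dsp, Pkp2, Jup, Cdh2 and Tjp1) were higher in CKO-MI with either one. None of these 7 passed after adjustment with all libraries in the fit.

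**Figure D4:**
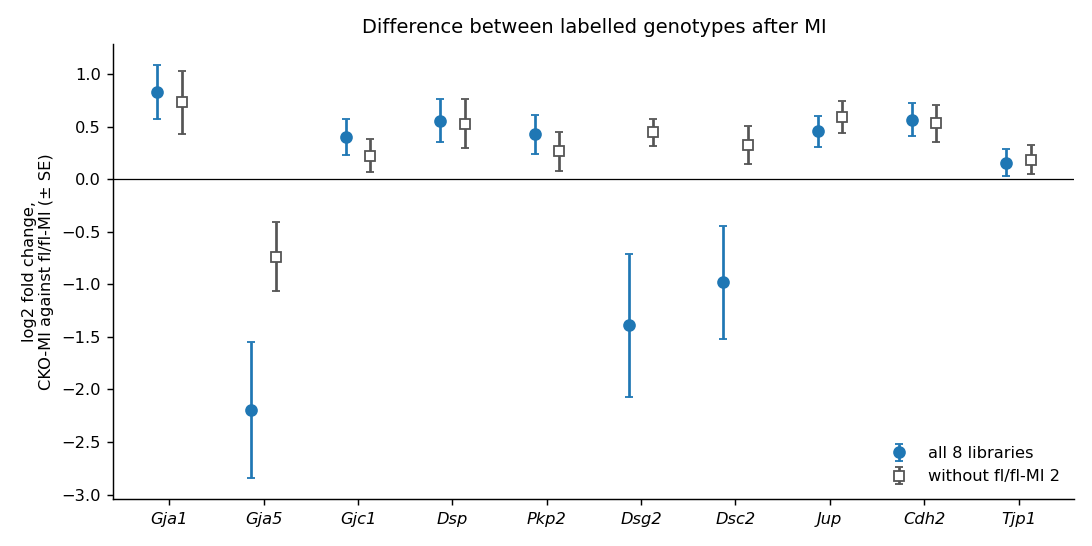
Log2 fold change of the libraries labelled CKO-MI against those labelled fl/fl-MI with its SE, for all 8 libraries and without fl/fl-MI 2. Gja5, Dsg2 and Dsc2 move most between the fits (Dsg2 from -1.39 to 0.44), and none of the 10 genes passed the adjusted test in either.

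In the Sham hearts the labelled genotypes gave no call among the 10 genes, against 0.00713% of all genes, and none at an unadjusted p under 0.05, against 3.89%. DESeq2 called none either. The log2 fold changes of CKO-Sham against fl/fl-Sham lay between -0.30 (Dsp) and 0.20 (Gjc1), and the pairs of libraries were apart for 5 of 10 genes, against 47% of all genes. The difference of the MI effects between genotypes passed for no gene (percent called 0), nor with DESeq2 for any of the 10. It had an unadjusted p under 0.05 for 6 of 10 genes, against 8.49%: Gja1 (1.08), Dsp (0.86), Cdh2 (0.65), Pkp2 (0.64), Jup (0.55) and Gja5 (-2.10). Without fl/fl-MI 2 these were 5 of 10, against 14.9% of all genes, namely Gja1 (0.98), Dsp (0.83), Jup (0.69), Cdh2 (0.61) and Dsg2 (0.60). This contrast shares its MI libraries with the preceding one, so the 2 counts are not separate evidence.

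Other genes of the disc were taken from 4 lists of 57 genes, of which 55 were in the table and 33 passed the filter on low values. Over both genotypes 19 were higher in MI and 1 was lower, against 22% and 18.3% of all genes tested, and 13 did not pass. Their median log2 fold change was 0.58, against 0.03 over all genes. Most of those that rose belong to the list of proteins that sit at the disc without being junction subunits, where 13 of 15 were higher. They include Xirp1, an actin-binding disc protein (2.29, adjusted p = 0.00191), and Ank3, an ankyrin that anchors membrane proteins (1.08, adjusted p = 0.00117), while Myzap (0.27, adjusted p = 0.101) and Des, desmin (0.38, adjusted p = 0.213), did not pass. Of the adherens junction partners of Cdh2, 4 of 11 tested were higher and 1 lower. Vcl, vinculin (1.49, adjusted p = 0.00053), and the alpha-catenins Ctnna3 (2.01, adjusted p = 0.00285) and Ctnna1 (0.70, adjusted p = 0.0174) rose and Afdn, afadin, fell by 1.30 (adjusted p = 0.00054), while Ctnnb1, beta-catenin, was at 0.09. The fourth that rose was Arvcf (0.59, adjusted p = 0.0477), named after its value was seen. None of 3 further desmosome genes passed (Pkp4 -0.62, Ppl -0.13, Perp 0.03). Of 17 further connexins and pannexin only 4 were tested. Panx1 rose by 1.78 (adjusted p = 0.0217) and Gjb5 by 2.83 (adjusted p = 0.0267), the latter from at most 0.341 CPM in Sham to 0.650 to 2.24 CPM in MI, while Gja4 (0.19) and Gja3 (0.14) did not pass. In FPKM 27 of the 33 were higher and 1 lower, against 7027 higher and 837 lower of all 14028 genes. When the labelled genotypes were compared after MI, 5 of the 33 had an unadjusted p under 0.05, against 8.31% of all genes, among them Nrap (0.89), Cxadr (0.47) and Myzap (0.60), which were higher, and Ppl, which was lower (-1.13), and none passed after adjustment. The library labelled fl/fl-MI 2 split these lists. Among others, Nrap and Xirp1 were lowest there of the 4 MI libraries, while Ctnna1, Ctnna3, Pkp4 and Ppl were highest there.

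**Figure D5:**
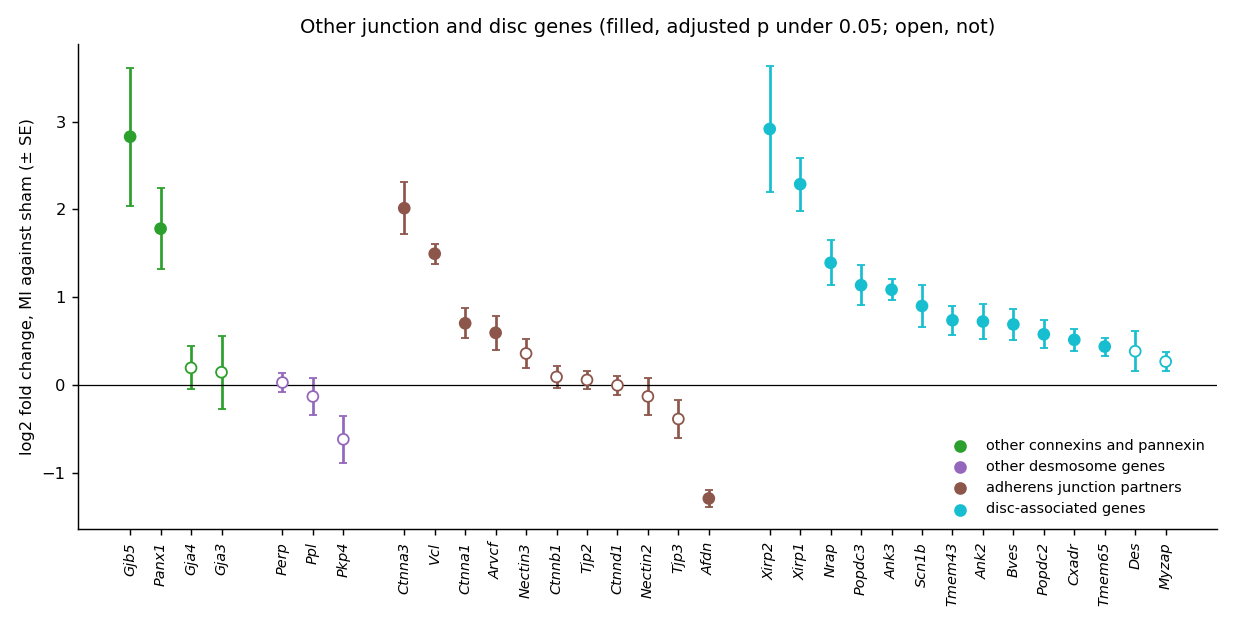
Log2 fold change of MI against Sham over both labelled genotypes, with its SE, for 32 of the 33 other disc genes tested, grouped by list and filled where the adjusted p is under 0.05. The disc-associated genes plotted all lie above 0, while the desmosome genes lie near or below 0.

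The transcript table allowed the share of each gene's FPKM in its leading transcript to be compared for the 8 members with more than 1 expressed transcript. For Jup it was 93.7 ± 1.93% in Sham and 96.7 ± 1.08% in MI (SD, n = 4; exact permutation p = 0.0286). This was the only p under 0.05 among 8 tests, is the smallest that 4 against 4 libraries allow, and is not adjusted for their number. On estimated counts in place of FPKM the exact p was 0.0857. For Dsp, whose transcripts encode a long and a short desmoplakin, the long one, ENSMUST00000124830, took 90.6% of the FPKM in Sham and 91.0% in MI (exact p = 0.857), so the higher level of Dsp came without a detectable shift between them. The leading share of Gja5 was 98.4% and 91.9% (exact p = 0.0571) and that of Gjc1 60.2% and 48.6% (exact p = 0.0857). Dsc2 was assigned erratically, with 30.2 ± 28.9% and 55.7 ± 7.94% in ENSMUST00000039247 (exact p = 0.171).

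Tjp1 has 2 main transcripts, of which ENSMUST00000102592 holds an exon that ENSMUST00000032729 lacks. The first took 78.2 ± 2.17% of the Tjp1 FPKM in Sham and 75.0 ± 4.64% in MI (exact permutation p = 0.229). The second took 13.3, 16.6, 15.5 and 15.5% in the Sham libraries and 20.1, 24.3, 18.7 and 18.7% in the MI libraries, which did not overlap. It was looked at after its values were seen and is given without a test, and the 2 transcripts also differ at their ends, so the share is not that of the exon alone. The exon is shown because it is the coding part by which they differ: exon 20 of 28, at chr7:65314093-65314332 on the minus strand of GRCm38 (GENCODE M21), 240 bases long, coding throughout, a multiple of 3 in length and 55.4% G and C.
Tjp1 exon 20: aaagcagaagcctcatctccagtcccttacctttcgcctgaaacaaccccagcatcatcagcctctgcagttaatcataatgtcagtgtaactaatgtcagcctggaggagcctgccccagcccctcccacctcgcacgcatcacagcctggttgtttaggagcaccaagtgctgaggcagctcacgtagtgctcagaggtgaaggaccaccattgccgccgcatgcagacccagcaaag

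By their pattern over the 8 libraries, the genes most like Gja1 were Alpl, Clock and Zfp449, each at an RMS difference of 0.17 in centred log2 CPM. Those most like Gja5 were Daam2 (0.27), Pdlim4 (0.30) and Slc7a10 (0.31), and 2 members stood near it, Dsg2 at rank 17 and Dsc2 at rank 70 of all genes tested. All of these distances rest on the same 8 libraries, and for Gja5 mostly on 1 of them.

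As the files place them, Gja1 lies on chromosome 10 from 56377330 to 56402513, Gja5 on chromosome 3 from 96904693 to 97077416 and Dsp on chromosome 13 from 38151294 to 38198577, all on the plus strand. Gjc1 (102799579 to 102819179) and Jup (100368958 to 100397749) both lie on the minus strand of chromosome 11. Pkp2 lies on chromosome 16 from 16213318 to 16248489 on the plus strand and Tjp1 on chromosome 7 from 65296165 to 65527696 on the minus strand. The 3 cadherin genes share chromosome 18, with Dsg2 from 20558074 to 20604521 on the plus strand and Dsc2 from 20030633 to 20059554 and Cdh2 from 16588877 to 16809246 on the minus strand. For 6 of the 10 genes these coordinates equal those of GENCODE M21 on GRCm38. Exons of Gja5, Dsp and Dsg2 overlap those of Gpr89, Gm10129 and Gm16090 on the opposite strand. Whether counting used the strand is not given in the sources used here, so reads of these pairs may not be told apart.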

How the data were processed

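Myocardial RNA was sequenced as paired reads of poly(A) libraries with a marked second strand. The authors deposited whole-number counts and FPKM per gene, and estimated counts and FPKM per transcript. FastQC and cutadapt 1.9 are named in the submitters' processing notes; the aligner, counter and build are not given in the sources used here. The counts were taken to move in steps of about 4 per read pair.

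Groups were taken from the labels. The 14028 genes reaching a mean of 0.5 FPKM were fitted in edgeR 4.0.16 (R 4.3.3), with TMM, quasi-likelihood and 1 mean per group over all 8 libraries. P-values were adjusted by Benjamini-Hochberg over all genes tested and called under 0.05. CPM uses TMM-scaled library sizes. With 2 libraries per group, the spread was estimated over all groups together. Single values were tested by exact permutation (SciPy 1.17.1). Alternatives were RLE, DESeq2 1.42.0, limma 3.58.1 on log2(FPKM + 1) or log2(FPKM + 0.1), other filters, no mitochondrially encoded genes, counts divided by 4, a replicate block and leaving out each library. The scripts were tested on simulated data. All 10 members are described. From each list of other disc genes up to 3 called and 3 uncalled genes were named by rule, and others as stated, except that 1 gene is counted but not reported here. The members and lists were chosen with earlier results of these data known. Sequences are from RefSeq (GRCm38.p6) and GENCODE M21.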

Additional observations from a re-analysis of the deposited data

Results flagged for a closer look

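In 3 genes 1 of the 4 MI libraries, the one labelled fl/fl-MI 2, lay farther from the others than Dixon's 95% limit allows: Gja5 at 49.2 CPM (next 10.9), Dsg2 at 152 CPM (next 34.1) and Dsc2 at 74.9 CPM (next 24.4). The gap made up 0.872, 0.927 and 0.903 of the range of the 4 libraries. In all, 20 groups of 4 libraries were checked (10 genes, Sham and MI), of which chance alone would pass about 1 in 20. The same library had the highest atrial marker sum and an Esr1 level of 331 CPM, against 7.75 in fl/fl-MI 1.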

How the results depend on the processing

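Of the counts of genes passed, those that moved by over 1.5 times were the following, the cause not tested unless stated. In fl/fl-MI against fl/fl-Sham, 0 of 10 genes passed in place of 3 with only the 4 libraries compared, which leaves fewer libraries to estimate the spread. In CKO-MI against CKO-Sham 3 passed in place of 5 with the replicate number as a block. In CKO-MI against fl/fl-MI DESeq2 called 1 in place of 0. Of the other disc genes 13 passed in place of 20 at a mean FPKM of at least 5, where fewer genes were tested. Relative to cardiomyocyte markers, 4 genes in place of 2 had an unadjusted exact p under 0.05 without Myh6. On estimated counts, 0 in place of 1 transcript shares had such a p.

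Deviations of replicate 1 from its group mean correlated weakly between groups over all genes (from -0.21 to 0.055). With 2 libraries per group this cannot exclude that the replicate numbers pair libraries, and the labels do not say. The replicate block, besides the count above, changed fl/fl-MI against fl/fl-Sham from 3 to 2.

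Directions turned on the FPKM scale, with pseudocounts of 0.1 and 1 in turn. Over both genotypes Gjc1 was 0.11 and 0.10, Jup 0.49 and 0.46, and Tjp1 0.082 and 0.076. In fl/fl Gja1 was 0.48 and 0.46, Gjc1 0.0040 and 0.0072, Jup 0.21 and 0.20, and Tjp1 0.049 and 0.046. In CKO Gjc1 was 0.22 and 0.19, Dsg2 0.11 and 0.093, Dsc2 0.19 and 0.16, and Tjp1 0.11 and 0.11.

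When the 8 libraries were left out singly, 3 to 7 genes passed over both genotypes, 0 to 7 in fl/fl, 0 to 7 in CKO, 0 to 3 between genotypes after MI, 0 in Sham, 0 to 3 for the interaction, and 8 to 24 of the other disc genes. The log2 fold changes that turned were Gja5 (-0.55 to 0.52), Dsg2 (-0.75 to 0.54) and Dsc2 (-0.49 to 0.48) over both genotypes; Gja1 (-0.21 to 0.026), Gja5 (-0.23 to 1.92), Dsg2 (-1.05 to 1.54) and Dsc2 (-0.61 to 1.34) in fl/fl; and Dsg2 (-2.16 to 0.44) and Dsc2 (-1.64 to 0.32) between genotypes after MI. A lone library in a group is assumed to vary like the others. Exact tests were not repeated on 7 libraries, where no p under 0.0571 is possible.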
